A study of Mus musculus with 3 samples.

Results

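The Hox cluster genes are a family of homeobox genes that encode DNA-binding transcription factors. Every gene of the count files whose symbol is *Hox*, a cluster letter from a to d, and a number was taken, which gave 39 genes of 28692 in all, and this rule reads symbols and no measured value. The annotation (GENCODE M21 on GRCm38) places them in 4 clusters. HoxA has 11 members on chromosome 6, HoxB has 10 on chr11:96194316-96368256, HoxC has 9 on chr15:102921103-103036852, and HoxD has 9 on chr2:74668310-74765142. The data are scRNA-Seq libraries of whole lung from 3 wild-type C57BL/6 mice (mice 2, 3, and 4), kept in room air (RA) from day 1 to day 14 of life and examined at P14. About 16000 freshly dissociated cells were loaded per library. The mice form 1 condition and are the replicates, so the comparisons are between cell types within the same lungs. Levels are given as CPM, the UMIs (tagged transcript molecules) of a gene per 1000000 UMIs of the cells named, as mean ± SD of 3 mice.

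Hox proteins give cells their position along the body axis, and their genes are ordered on the chromosome in the order of the axis: members with low numbers are used toward the head and members with high numbers toward the tail. Genes with the same number in different clusters are paralogs. In the lung, Hox genes are best known from the mesenchyme, and *Hoxa5* is required for normal formation of the airways and alveoli in mice. Retinoic acid is a classic inducer of low-numbered members, and the TALE proteins of the PBX and MEIS families bind DNA together with Hox proteins.

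Promoter windows of the HoxA and HoxB members with the most UMIs, *Hoxa5* and *Hoxb4*, are shown because these clusters held nearly all Hox UMIs and differed between cell types. They are from RefSeq on GRCm38.p6, run from 250 bases before to 50 bases after the gene start, and read 5′ to 3′ on the strand of the gene. *Hoxa5* lies at chr6:52204538-52204837 on the minus strand and *Hoxb4* at chr11:96318017-96318316 on the plus strand. Capitals mark matches, on either strand, to AGGTCA, the hexamer bound by retinoic acid receptors, and to the CCAAT box.
Hoxa5: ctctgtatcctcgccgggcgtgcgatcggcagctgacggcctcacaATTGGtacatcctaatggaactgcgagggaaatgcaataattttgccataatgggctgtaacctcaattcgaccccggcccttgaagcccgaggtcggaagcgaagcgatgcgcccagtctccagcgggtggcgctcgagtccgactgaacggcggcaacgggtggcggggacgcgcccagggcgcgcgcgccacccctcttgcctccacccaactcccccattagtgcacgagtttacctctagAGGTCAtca
Hoxb4: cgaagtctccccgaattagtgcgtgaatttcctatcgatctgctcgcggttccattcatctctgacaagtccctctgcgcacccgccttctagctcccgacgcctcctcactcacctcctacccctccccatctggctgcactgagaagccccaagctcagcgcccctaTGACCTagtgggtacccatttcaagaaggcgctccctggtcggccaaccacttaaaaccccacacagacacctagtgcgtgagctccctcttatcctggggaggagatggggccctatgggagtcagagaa
Both windows held AGGTCA or its reverse complement, and only that of *Hoxa5* also held a CCAAT box. In the table used, 22 of the 39 genes had a window, 24 windows in all. AGGTCA was found in 7 of the 24 windows and in 16.3% of the 32851 promoter windows of all genes. CCAAT was found in 15 of 24, against 37.4% of all. TGATNNAT, a sequence bound by PBX with Hox proteins, was found in 4 (8.85% of all), TGACAG, bound by MEIS proteins, in 2 (19.2%), and TATAAA, the TATA box, in 4 (13.6%). None of these motifs contains another, and a match describes the letters, not binding.

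The libraries of mice 2, 3, and 4 held 23744510, 22476491, and 25192427 UMIs in 9644 cells. A filter of 200 or more genes and no more than 20% mitochondrial UMIs left 7642 cells, whereas the description of the series gives 5677 cells and the sources used here state no filter. A stricter filter (500 genes and 10%) left 5267. Libraries shared 2 to 5 cell barcodes per pair, and 156 kept cells (2.04%) were marked as doublets and retained. Cells were clustered without Hox genes among the variable genes, and clusters were named from marker genes, so class names stand for cells that look stromal, endothelial, epithelial, or immune by their markers. There were 1540 stromal cells, 957 endothelial cells (ECs), 1256 epithelial cells, and 3021 immune cells, while 868 cells in other clusters were not named. Median UMIs per cell were 10526, 7593, 16223, and 3865 in these classes and 864 in the cells not named. The summed level of 6 stromal markers was 18814 to 21368 CPM in stromal cells and 335 to 656 CPM in ECs, 2.66% of the stromal level, and that of 6 endothelial markers in stromal cells was 0.707% of the level in ECs.

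Hox transcripts were found in stromal cells and ECs, and they came almost entirely from the low- and middle-numbered members of HoxA and HoxB. The kept cells held 18391 Hox UMIs, and a further 248 lay in cells left out. Stromal cells held 63.3% ± 0.92 (SD, n = 3) of them with 20.2% of the cells, and ECs held 30.1% ± 0.71 with 12.5% of the cells. Epithelial cells held 1.02% ± 0.64, immune cells 0.794% ± 0.33, and cells not named 4.77% ± 1.14. Of the UMIs of all genes, stromal cells held 26.4%, ECs 14.5%, epithelial cells 33.6%, immune cells 20.8%, and cells not named 4.70%. The 2 clusters were split differently. HoxA UMIs lay in stromal cells (41.7% ± 1.68) and ECs (49.3% ± 1.13), whereas 84.7% ± 1.08 of HoxB UMIs lay in stromal cells and 11.2% ± 0.51 in ECs. *Hoxa5* alone held 3260 of the 4480 HoxA UMIs of ECs and 1717 of the 3762 of stromal cells. The HoxA split, above all in ECs, therefore rests in large part on 1 gene.

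Of the 39 genes, 29 had at least 1 UMI. Described one by one, with at least 100 UMIs each, are *Hoxa2* to *Hoxa5*, *Hoxa7*, and *Hoxb2* to *Hoxb8*. *Hoxa6* had 66, and 15 had 1 to 18 UMIs over all 3 mice. No UMI was found for *Hoxa11*, *Hoxa13*, *Hoxb13*, *Hoxc5*, *Hoxc10*, *Hoxc12*, *Hoxd1*, *Hoxd11*, *Hoxd12*, and *Hoxd13*. A count of 0 allows up to 3 UMIs in these cells, so a low level cannot be told from absence at this depth. In HoxA, the level stopped after *Hoxa7*, since *Hoxa9* and *Hoxa10* had 10 and 2 UMIs. In HoxB, *Hoxb1* at one end had 4 UMIs and *Hoxb9* at the other had 1, with *Hoxb2* to *Hoxb8* between them. The kit counts transcript 3′ ends, so UMIs were not divided by gene length, and levels are compared between cells for 1 gene rather than between genes.

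**Figure D1:**
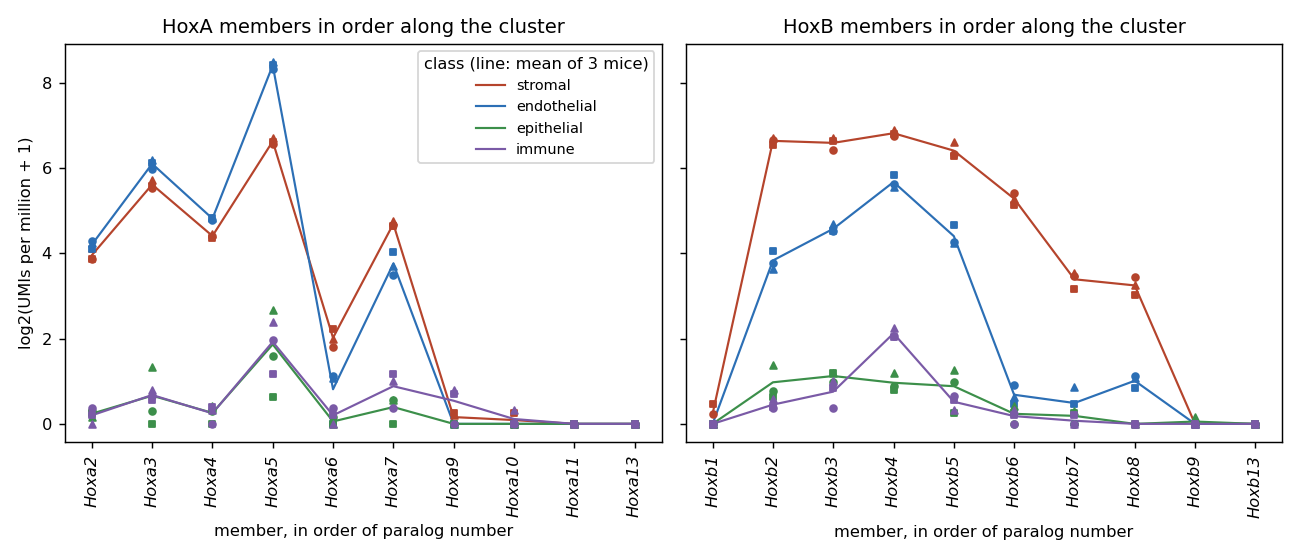
Level of 10 HoxA (left) and 10 HoxB (right) members in order of paralog number, as log2(CPM + 1), in stromal cells, ECs, epithelial cells, and immune cells. Points are the 3 mice and lines join their means. Stromal cells and ECs follow each other from *Hoxa2* to *Hoxa4* and separate from *Hoxa5* to *Hoxa7* and from *Hoxb2* to *Hoxb8*. Epithelial and immune cells lie low, with their highest means at *Hoxa5* (2.64 and 2.79 CPM) and, in immune cells, *Hoxb4* (3.35 CPM).

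Stromal cells had more of every HoxB member tested than ECs, and ECs had more *Hoxa5*. In edgeR's test on UMIs summed per mouse and class, 10 of the 14 members tested were higher in stromal cells, where 31.1% of all 14198 genes tested were. One member was higher in ECs, where 24.7% of all genes were. *Hoxa5* was at 94.0, 96.0, and 103 CPM in the stromal cells of mice 2, 3, and 4, and at 318, 340, and 357 CPM in their ECs. Every EC value lay above every stromal value, and the means were 97.7 ± 4.80 and 338 ± 19.5 CPM (n = 3). The log2 fold change of stromal cells over ECs was -1.68 ± 0.18 (SE, adjusted p = 9.72e-07).

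No other HoxA member tested was called as higher in ECs in this fit, although *Hoxa3* and *Hoxa4* ran the same way with smaller differences. As a percentage of the stromal level of the same mouse, the EC level was 346% ± 8.13 for *Hoxa5*. It was 141% ± 5.52 for *Hoxa3* and 134% ± 5.27 for *Hoxa4*. *Hoxa2*, known from the hindbrain and pharyngeal arches, was at 13.7, 13.5, and 16.4 CPM in stromal cells and 18.5, 16.0, and 17.8 CPM in ECs, and the 2 ranges overlapped (adjusted p = 0.476). *Hoxa3*, which is needed for the thymus and parathyroid, was at 45.3, 46.6, and 51.6 CPM in stromal cells and 62.1, 68.7, and 71.6 CPM in ECs. *Hoxa4* was at 20.2, 19.5, and 20.9 CPM in stromal cells and 26.7, 27.3, and 27.3 CPM in ECs. For both genes each EC value was above each stromal value, but neither passed the test (adjusted p = 0.0582 and 0.106). The call for *Hoxa3* depended on settings: it passed in 7 of 14 alternatives, among them the fit with the mouse as a block (adjusted p = 0.0345), the fit without mouse 4 (0.0438), and DESeq2 (0.0347). *Hoxa4* passed without TMM scaling (0.0336) and with marked doublets removed (0.0492).

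Toward the high-numbered end of the expressed part of HoxA the difference ran the other way. *Hoxa7* was at 24.2, 24.1, and 26.1 CPM in stromal cells and 10.3, 15.2, and 12.02 CPM in ECs, without overlap (log2 fold change 1.12 ± 0.21, adjusted p = 3.55e-04 in edgeR). *Hoxa6* had 53 UMIs in stromal cells and 8 in ECs, with a log2 fold change of 1.96 ± 0.56 (adjusted p = 7.85e-03). Without mouse 3 the value for *Hoxa6* was 1.38 and no longer passed (adjusted p = 0.0690).

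In HoxB, all of the 7 members tested were higher in stromal cells. *Hoxb2*, a hindbrain gene, was at 100.3, 91.3, and 104 CPM in the stromal cells of mice 2, 3, and 4. In ECs it was at 12.6, 15.6, and 11.5 CPM. The stromal values were all above the EC values (log2 fold change 3.03 ± 0.14, adjusted p = 6.47e-11). *Hoxb3* was at 85.3, 97.9, and 102 CPM in stromal cells and 22.0, 21.9, and 24.6 CPM in ECs (2.16 ± 0.11, adjusted p = 1.33e-10). *Hoxb4*, known for expanding blood stem cells when overexpressed, was at 106, 110, and 118 CPM in stromal cells and 48.1, 55.8, and 45.9 CPM in ECs. It showed the smallest difference of the HoxB members, with a log2 fold change of 1.28 ± 0.09 (adjusted p = 6.40e-09). *Hoxb5*, which has been studied in branching airways, was at 78.8, 76.3, and 96.2 CPM in stromal cells and 18.2, 24.2, and 18.03 CPM in ECs (2.19 ± 0.16, adjusted p = 1.32e-08).

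From *Hoxb6* on, ECs had almost no UMIs. *Hoxb6* had 667 UMIs in stromal cells and 6 in ECs, at 41.7, 33.9, and 37.9 CPM against 0.879, 0.390, and 0.546 CPM (log2 fold change 5.98 ± 0.31, adjusted p = 3.02e-10). *Hoxb7* had 168 and 4 UMIs (4.54 ± 0.53), and *Hoxb8* had 150 and 10 UMIs (3.12 ± 0.37). Both passed the edgeR test, with adjusted p = 2.99e-06 and 2.63e-05. These 3 fold changes rest on few EC molecules. The value for *Hoxb7* was 3.90 without mouse 2 and 5.63 without mouse 4, and with marked doublets removed the values were 8.22 for *Hoxb6*, 8.49 for *Hoxb7*, and 3.77 for *Hoxb8*. For *Hoxb6* it was also 6.71 with the stricter cell filter and 7.49 with classes set from each cell's own UMIs.

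The EC level as a percentage of the stromal level of the same mouse was 13.6% ± 3.13 for *Hoxb2*, 24.0% ± 1.72 for *Hoxb3*, 44.9% ± 5.93 for *Hoxb4*, and 24.5% ± 6.60 for *Hoxb5*. It was 1.57% ± 0.49 for *Hoxb6*, 4.24% ± 3.93 for *Hoxb7*, and 11.9% ± 0.95 for *Hoxb8*. The summed stromal markers, which were also used to name the classes, stood at 2.66% on the same scale. The means of *Hoxb2* to *Hoxb5* and *Hoxb8* were above this value and that of *Hoxb6* was below it. The mean of *Hoxb7* was also above it, but it rests on 4 EC UMIs and the mice ran from 0% to 7.77%. The part of stromal RNA or of mixed droplets in the EC values of *Hoxb2* to *Hoxb8* was not tested.

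**Figure D2:**
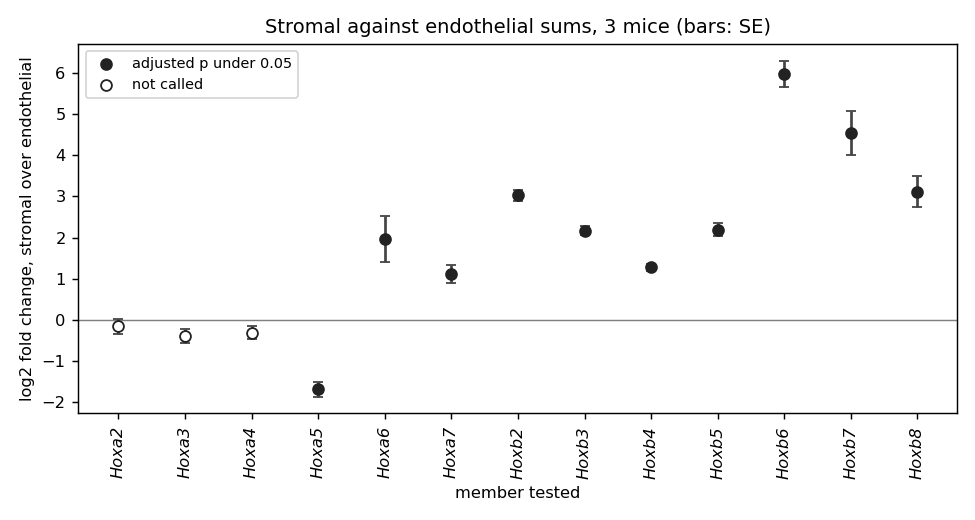
Log2 fold change of stromal cells over ECs for 13 of the 14 members tested, with SE, in cluster order. Filled points passed the edgeR test at an adjusted p under 0.05, and values above 0 are higher in stromal cells: the HoxB members all lie above 0, and *Hoxa5* at -1.68 is the one filled point below it.

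Epithelial and immune cells had Hox levels of 8.34 ± 5.10 and 10.4 ± 2.43 CPM summed over all members, against 661 ± 39.8 CPM in stromal cells and 577 ± 27.2 CPM in ECs. All 14 members tested were higher in stromal than in epithelial cells, where 36.0% of all genes were, and all 14 were higher in stromal than in immune cells, where 38.9% were. ECs were higher than epithelial cells in 12 members (33.8% of all genes) and higher than immune cells in 11 (34.1%). The exceptions were *Hoxb6* and *Hoxb7* against epithelial cells, and these and *Hoxa6* against immune cells. *Hoxa6* against epithelial cells was lost without mouse 2 (adjusted p = 0.0731) or mouse 4 (0.191). No member was higher in epithelial or immune cells in these comparisons by edgeR, DESeq2, or any other alternative, and 0 were at an unadjusted p under 0.05. Of all genes, 31.3% were higher in epithelial and 37.4% in immune cells than in stromal cells, and 32.6% and 35.3% were higher than in ECs.

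Scaling mattered for all genes in these comparisons. Without TMM scaling, the share of all calls that were higher in the first class went from 53.5% to 71.7% for stromal against epithelial cells, from 50.9% to 70.8% for ECs against epithelial cells, and from 49.1% to 60.4% for ECs against immune cells. The median log2 fold change of all genes shifted by 0.37, 0.48, and 0.22, and by 0.14 for stromal against immune cells. The Hox differences were larger than these shifts. Over the members that passed the test and had more than 3 UMIs on both sides, log2 fold changes ran from 4.68 (*Hoxa5*) to 7.20 (*Hoxb6*) for stromal over epithelial cells and from 4.57 (*Hoxa7*) to 7.87 (*Hoxb2*) for stromal over immune cells. For ECs they ran from 3.15 (*Hoxb2*) to 6.36 (*Hoxa5*) over epithelial cells and from 3.45 (*Hoxa7*) to 6.79 (*Hoxa5*) over immune cells. *Hoxb6*, with 6 UMIs in ECs and 4 in epithelial cells, was at 1.22 ± 0.79 and was not called (adjusted p = 0.200).

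Single droplets weighed heavily in the epithelial values. Of the 201 Hox UMIs of epithelial cells, 137 lay in 9 marked doublets, and 6 epithelial cells with at least 5 members, 5 of them marked as doublets, held 119. With marked doublets removed, *Hoxa5* was higher in ECs than in epithelial cells by 9.11 on the log2 scale and in stromal cells by 7.38. Without mouse 4 these values were 7.30 and 5.64, and the log2 fold change over epithelial cells was 8.28 for *Hoxb6* in stromal cells and 3.87 for *Hoxb2* in ECs. Without mouse 2 that of *Hoxb6* was 6.53. Over immune cells, *Hoxa5* stood at 8.01 in ECs and 6.285 in stromal cells once marked doublets were removed. In the neutrophil-like cells, all 16 *Hoxa5* UMIs came from 1 marked doublet of mouse 4.

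Most stromal cells and ECs carried a Hox UMI, and few epithelial or immune cells did. The shares below leave out the cells not named, which held 866 Hox UMIs at 287 ± 79.8 CPM. A Hox UMI was present in 94.6% ± 0.79 of stromal cells, 87.3% ± 4.23 of ECs, 3.36% ± 1.22 of epithelial cells, and 3.32% ± 0.25 of immune cells. As a background type, B-cell-like cells had one in 2.94% ± 0.48 at a median of 3961 UMIs per cell. After each cell was thinned to 1000 UMIs, leaving out 68, 71, 33, and 105 shallower cells of the 4 classes and 5 B-cell-like cells, the shares were 48.1%, 41.7%, 0.468%, and 0.837%, and 0.766% in B-cell-like cells. The thinned epithelial share was below that of B-cell-like cells and the immune share, which includes them, was close to it. From *Hoxb2* to *Hoxb5*, immune cells held 5, 10, 46, and 6 UMIs, and stromal cells held 1734, 1670, 1960, and 1480. The part of free RNA in the epithelial and immune shares was not tested.

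The 2 clusters differed in the same way by cell as by UMI. A HoxA UMI was found in 79.6% ± 0.89 of stromal cells and 82.2% ± 3.99 of ECs (19.0% and 35.3% after thinning), and a HoxB UMI in 90.4% ± 1.24 of stromal cells and 49.4% ± 3.85 of ECs (36.0% and 9.89% after thinning). *Hoxa5* alone was seen in 55.7% of stromal cells and 74.4% of ECs, against 0.624% of B-cell-like cells. Cells held several members at once: the median was 4 members per stromal cell and 2 per EC in each mouse, and 0 in epithelial and immune cells. At least 5 members were found in 718 stromal cells (46.6%) and in 115 ECs (12.02%), 11 of which were marked doublets. Counts of members per cell rise with the depth of the cell, and stromal cells were deeper than ECs.

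Summed over members, the HoxB share of HoxA and HoxB UMIs was 67.8%, 67.1%, and 67.6% in the stromal cells of mice 2, 3, and 4 and 19.0%, 20.3%, and 17.3% in their ECs. The means were 67.5% ± 0.40 and 18.9% ± 1.47 (n = 3), and the 2 classes were far apart in every mouse. Because *Hoxa5* made up 3260 of the 4480 HoxA UMIs of ECs, the low EC share depends in large part on this gene. The share without *Hoxa5* was not computed. Among stromal types the share was highest in a cluster led by *Pdgfra* and *Stc1* (76.1% ± 1.49) and in myofibroblast-like cells (76.0% ± 1.84), whose ranges overlapped. It was 61.8% ± 3.11 in smooth muscle-like cells, 57.6% ± 3.88 in pericyte-like cells, and 52.8% ± 5.04 in a cluster led by *Dcn* and *Col2a1*. *Col13a1*-type fibroblast-like cells had the lowest stromal share, 41.7% ± 2.89. In EC types it was 26.1% ± 0.79 in *Car4*-type capillary-like cells, 20.4% ± 3.41 in arterial-like cells, 18.1% ± 1.88 in *Aplnr*-type capillary-like cells, and 13.4% ± 3.68 in venous-like cells. Arterial-like and *Aplnr*-type cells overlapped, and the lowest stromal value, 38.5% in mouse 3, was above the highest EC value, 26.9% in mouse 2.

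**Figure D3:**
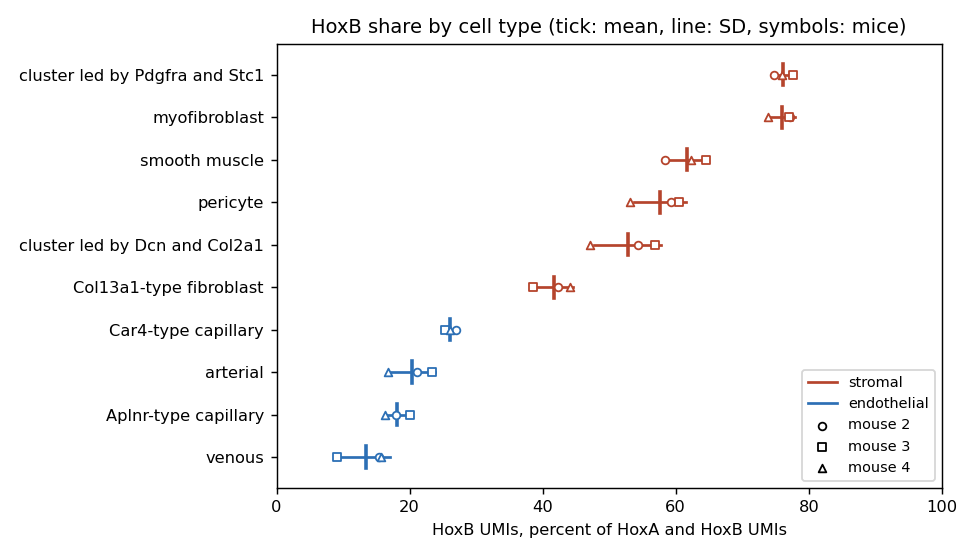
HoxB UMIs as a percentage of HoxA and HoxB UMIs in each stromal type (red) and EC type (blue). Symbols are mice, ticks are means, and lines are SD over 3 mice: stromal types run from 41.7% to 76.1% and EC types from 13.4% to 26.1%. HoxA UMIs include *Hoxa5*, which made up 3260 of the 4480 HoxA UMIs of all ECs.

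Within the stroma, myofibroblast-like cells, the contractile cells of alveolar septa, had more of the HoxB genes *Hoxb2* to *Hoxb6* and less of the HoxA genes *Hoxa3*, *Hoxa4*, *Hoxa5*, and *Hoxa7* than *Col13a1*-type fibroblast-like cells. Of the 12 members tested, 5 were higher in myofibroblast-like cells, where 17.5% of all 10361 genes tested were, and 4 were higher in *Col13a1*-type cells, where 19.3% were. Without TMM scaling, the share of all calls that were higher in myofibroblast-like cells went from 47.6% to 57.9%, with a shift of the median by 0.11. *Hoxb2* was at 120, 120, and 121 CPM in myofibroblast-like cells and at 19.5, 18.3, and 26.8 CPM in *Col13a1*-type cells (log2 fold change 2.38 ± 0.18, adjusted p = 3.15e-10). *Hoxb6* was at 57.2, 55.6, and 53.2 CPM against 16.3, 11.9, and 8.46 CPM (2.08 ± 0.22, adjusted p = 8.73e-08). In both genes the types lay far apart in all mice.

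*Hoxb5* followed with 113 ± 9.05 against 42.4 ± 9.08 CPM (log2 fold change 1.30 ± 0.15, adjusted p = 3.66e-07) and *Hoxb4* with 137 ± 20.6 against 63.9 ± 19.5 CPM (1.01 ± 0.17, adjusted p = 4.77e-05). *Hoxb3* differed least, at 124 ± 21.7 against 77.8 ± 6.00 CPM (0.55 ± 0.14, adjusted p = 3.73e-03), and did not pass without mouse 3 (adjusted p = 0.0551). *Hoxb7* was at 12.04 ± 1.47 and 10.5 ± 3.33 CPM and was not called. In the other direction, *Hoxa5* was at 81.5, 88.9, and 89.9 CPM in myofibroblast-like cells and 143, 163, and 199 CPM in *Col13a1*-type cells, without overlap. Its log2 fold change was -1.07 ± 0.14 (adjusted p = 1.14e-06 in edgeR), and that of *Hoxa7* was -1.45 ± 0.21 (adjusted p = 9.20e-06). *Hoxa4* (-0.78 ± 0.24, adjusted p = 0.0129) and *Hoxa3* (-0.47 ± 0.18, adjusted p = 0.0497) were weaker. Without mouse 2 neither passed (adjusted p = 0.0872 and 0.362), nor without mouse 3 (0.123 and 0.140), and *Hoxa3* was called in 6 of 13 alternatives.

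Pericyte-like cells, which wrap capillaries, also had more *Hoxb2*, *Hoxb4*, and *Hoxb5* than *Col13a1*-type cells. Of 12 members tested, 4 were higher in pericyte-like cells, where 14.8% of all genes were, and 0 were lower, where 17.3% were. The count of 0 held in edgeR, DESeq2, and every other alternative run, with 0 lower also at an unadjusted p under 0.05. With 12 members, a count of 0 lies near the share of 17.3% and is no result about the members. With any 1 mouse left out, the count higher in pericyte-like cells was 3. *Hoxb2* was at 121, 191, and 127 CPM in pericyte-like cells (log2 fold change 2.58 ± 0.23, adjusted p = 4.51e-09), above the 18.3 to 26.8 CPM of *Col13a1*-type cells. *Hoxb4* was at 141 ± 22.6 CPM (1.11 ± 0.22, adjusted p = 4.04e-04) and *Hoxb5* at 108 ± 20.3 CPM (1.19 ± 0.21, adjusted p = 9.76e-05). The HoxB members *Hoxb3*, *Hoxb6*, and *Hoxb7* were not called in edgeR (adjusted p = 0.294, 0.270, and 0.295). Of these, *Hoxb3* and *Hoxb7* had negative estimates. *Hoxa5* was at 193 ± 29.6 CPM in pericyte-like cells and 168 ± 28.2 CPM in *Col13a1*-type cells and was not called. The pericyte-like cells were 133 cells in 2 clusters, 42 of which were of low depth (median 741 UMIs).

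Smooth muscle-like cells had the lowest *Hoxa5* of the stromal types, 45.6 ± 10.6 CPM, while their *Hoxa3* stood at 68.4, 67.4, and 69.0 CPM, above the 28.4 to 45.3 CPM of myofibroblast-like cells. Their *Hoxb2* was at 66.8 ± 8.05 CPM and their *Hoxb4* at 78.6 ± 3.80 CPM, both below every value of myofibroblast-like cells. The cluster led by *Pdgfra* and *Stc1*, which lacked enough markers for a name, had the highest mean *Hoxb2* of all types described here (184 ± 24.3 CPM) and the highest mean *Hoxb4* (165 ± 9.51 CPM). Summed over all members it also had the highest mean level, 939 ± 24.3 CPM, followed by pericyte-like cells at 854 ± 65.2 CPM and myofibroblast-like cells at 757 ± 56.5 CPM. Smooth muscle-like cells (447 ± 18.3 CPM) and the cluster led by *Dcn* and *Col2a1* (460 ± 38.4 CPM) were lowest among stromal types. In that last cluster 13 of 100 cells had over 20 UMIs of cartilage genes. No test was made for these types.

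**Figure D4:**
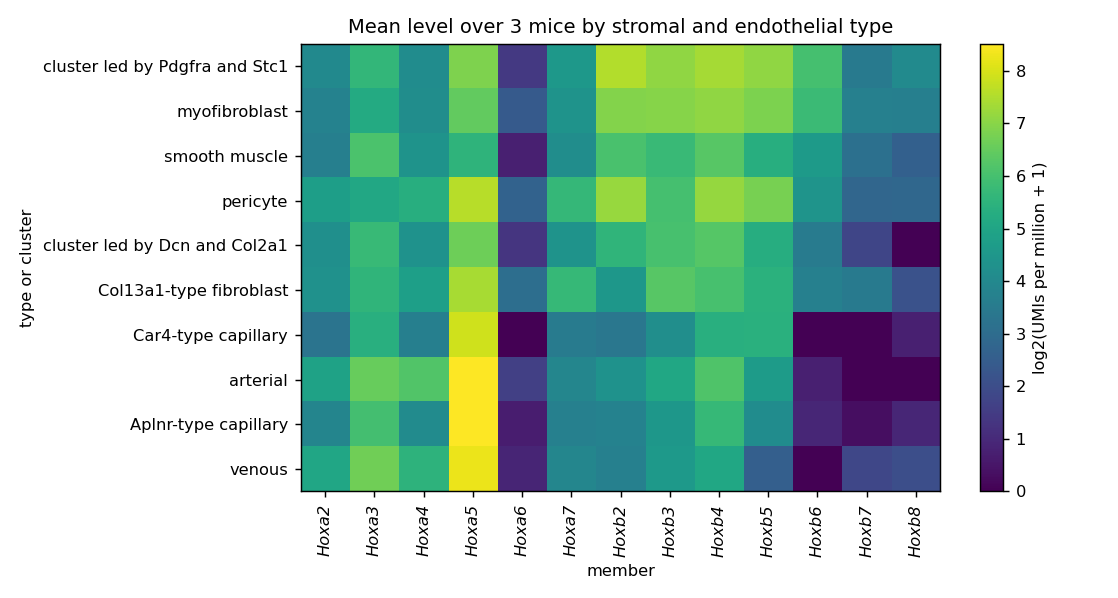
Mean level over 3 mice, as log2(CPM + 1), of 13 members (columns, in cluster order) in 6 stromal and 4 EC types or clusters (rows). *Hoxa5* is brightest in the EC rows, and *Hoxb2* to *Hoxb6* are brightest in the stromal rows, with *Hoxb2* dim in *Col13a1*-type fibroblast-like cells.

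Within ECs, fewer members passed the filter on low counts. *Car4*-type capillary-like cells were compared with *Aplnr*-type capillary-like cells, the 2 kinds of lung capillary ECs that the study relates to tip and stalk cells. Of 7 members tested, *Hoxb5* was higher in *Car4*-type cells, where 7.84% of 8051 genes were, and *Hoxa5* was higher in *Aplnr*-type cells, where 6.97% were. *Hoxb5* was at 43.9, 40.7, and 38.1 CPM in *Car4*-type cells and 14.0, 19.95, and 15.4 CPM in *Aplnr*-type cells, without overlap (log2 fold change 1.35 ± 0.26, adjusted p = 7.31e-04 in edgeR). *Hoxa5* was at 226, 253, and 227 CPM in *Car4*-type cells and 339, 357, and 397 CPM in *Aplnr*-type cells, again without overlap (-0.61 ± 0.13, adjusted p = 1.39e-03). The latter value was -1.98 at a clustering resolution of 0.4 and -1.99 with Hox genes among the variable genes, where other cells made up the types. *Hoxa3* did not pass (adjusted p = 0.0539), but it was called as higher in *Aplnr*-type cells in 6 of 13 alternatives, including the fit with the mouse as a block (0.0425).

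Arterial-like and venous-like cells had higher values of some other HoxA members. *Hoxa4* was at 88.9, 50.2, and 77.6 CPM in arterial-like cells, above the 13.6 to 17.7 CPM of *Aplnr*-type cells. *Hoxa3* was at 101, 97.2, and 104 CPM in venous-like cells and at 91.1 ± 15.8 CPM in arterial-like cells, against 61.1 ± 3.77 CPM in *Aplnr*-type and 40.1 ± 11.98 CPM in *Car4*-type cells. *Hoxa5* in arterial-like cells (363 ± 48.2 CPM) overlapped with *Aplnr*-type cells (364 ± 29.8 CPM), and venous-like cells were at 309 ± 33.4 CPM. *Hoxb5* was at 5.01 ± 2.34 CPM in venous-like cells, with 6 UMIs in 107 cells. *Hoxb6* had no UMI in *Car4*-type and venous-like cells and 1 in arterial-like cells. These values are a description, and no test was made between large-vessel and capillary types.

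HoxC and HoxD were nearly undetected. HoxC had 37 UMIs in 30 cells, 32 of them in stromal cells. *Hoxc13*, known from hair follicles, had 18 UMIs in 17 cells, all stromal, with 7, 5, and 6 UMIs in mice 2, 3, and 4. Of these, 10 were in myofibroblast-like cells and 7 in the cluster led by *Pdgfra* and *Stc1*. *Hoxc4* had 12 UMIs, 9 of them stromal. HoxD had 57 UMIs in 15 cells, 41 of them in 9 ECs, and the members concerned were *Hoxd4* (18 UMIs), *Hoxd8* (17), *Hoxd9* (17), *Hoxd10* (4), and *Hoxd3* (1). *Hoxd3* and *Hoxd4* share exons on the same strand, and reads within these cannot be assigned with certainty. Their last 500 exon bases do not overlap with each other. *Hoxa9*, known from blood progenitors, had 10 UMIs in only 5 cells. Of these UMIs, 7 were in immune cells, with 0, 4, and 3 in mice 2, 3, and 4. None of these genes passed the filter on low counts.

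The annotation places 18 other genes between the first and last Hox gene of the clusters, most of them noncoding RNAs. Of these, 11 had a UMI and 7 were tested. All 7 were higher in stromal cells and in ECs than in epithelial or immune cells, where 33.8% to 38.9% of all genes were. Between stromal cells and ECs, 3 were higher in stromal cells and 3 in ECs, where 31.1% and 24.7% of all genes were. With 7 genes, counts of 3 and 3 lie near these shares and are no result about the genes. *Hotairm1*, a noncoding RNA of HoxA, was at 49.5 ± 2.46 and 54.7 ± 7.27 CPM in these classes and was not called. The HoxB RNAs *Hoxb5os* (log2 fold change 3.47 ± 0.47) and *Hoxb3os* (1.35 ± 0.19) were higher in stromal cells, as was *Gm15050* of HoxA (1.498 ± 0.29). The HoxA genes *Gm29430* (-2.81 ± 0.41), *Hoxaas3* (-0.98 ± 0.26), and *5730596B20Rik* (-0.94 ± 0.28) were higher in ECs, with adjusted p = 5.44e-05, 5.09e-03, and 0.0103 in edgeR.

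Some of these RNAs lie across the ends of Hox genes on the opposite strand. In the last 500 exon bases, where 3′ UMIs fall, *Hoxa7* overlapped by 100% with *Hoxaas3*, *Hoxb2* by 100% and *Hoxb3* by 98.6% with *Hoxb3os*, and *Hoxa4* by 51.0% with *Gm29430*. The strand setting of the counting is not given in the sources used here, and if strand was not used, reads of such pairs cannot be told apart. *Hoxa5*, *Hoxb4*, *Hoxb5*, and *Hoxb6* had no such overlap of their ends.

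The TALE genes, whose proteins bind DNA with Hox proteins, did not all differ in 1 direction between the 2 Hox-rich classes. Of 9 genes tested, 5 were higher in stromal cells and 1 in ECs, where 31.1% and 24.7% of all genes were. *Meis2* was at 50.8 ± 7.26 CPM in stromal cells and 291 ± 5.77 CPM in ECs (log2 fold change -2.41 ± 0.29, adjusted p = 3.69e-06). *Meis1* was at 178 ± 2.49 and 144 ± 2.92 CPM in these classes and at 1.96 ± 0.58 CPM in epithelial cells. Against epithelial cells 6 TALE genes were higher and 3 lower in stromal cells (36.0% and 31.3% of all genes), and 4 were higher and 4 lower in ECs (33.8% and 32.6%). Against immune cells the counts were 6 and 2 for stromal cells (38.9% and 37.4%) and 5 and 3 for ECs (34.1% and 35.3%). With 9 genes, counts such as 4 and 4 lie near these shares and are no result about the TALE genes.

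Within classes, 3 of 8 TALE genes were higher and 2 lower in myofibroblast-like than in *Col13a1*-type cells (17.5% and 19.3% of all genes), and 1 was higher and 2 were lower in pericyte-like cells (14.8% and 17.3%). In *Car4*-type against *Aplnr*-type cells, 1 of 6 TALE genes tested was higher and 2 were lower (7.84% and 6.97%). *Meis1* was higher (0.78 ± 0.15) and *Meis2* was lower (-0.87 ± 0.14), with adjusted p = 8.07e-04 and 7.84e-05 in edgeR. Unlike the Hox genes, these genes were not kept out of the genes used for clustering. Of 18 chromatin regulators of Hox clusters (Polycomb and Trithorax group genes, histone demethylases, and *Ctcf*), 7 were higher in stromal cells and 6 in ECs, near the 31.1% and 24.7% of all genes, so these counts are no result about the regulators. *Kdm6b*, a demethylase of the Polycomb mark, was higher in stromal cells (0.72 ± 0.08), and *Kmt2a*, a methyltransferase that keeps Hox genes active, was lower (-0.20 ± 0.07, adjusted p = 0.0192). Described in the same way, beside the shares of all genes given with the TALE counts, the regulators higher and lower were 10 and 5 for stromal against epithelial cells, 5 and 8 for stromal against immune cells, 7 and 4 for ECs against epithelial cells, and 3 and 10 for ECs against immune cells. Within classes they were 3 and 1 of 17 for myofibroblast-like cells, 2 and 1 for pericyte-like cells, and 0 and 1 of 16 for *Car4*-type cells. *Cdx1*, *Cdx2*, and *Cdx4*, regulators of Hox genes in the embryo, had no UMI.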

How the data were processed

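The 3 scRNA-Seq libraries (10x v3 chemistry, 1 per mouse) were analyzed from the raw UMI counts that the authors deposited for each gene in each cell, made with Cell Ranger 3.0.2 and not normalized. Per the labels, the build was mm10, and the annotation and strand setting are not given in the sources used here. The SCTransform values and SingleR types of the study come after these files and were not used. Each deposited cell had at least 500 UMIs. The gene family and the lists were chosen with earlier results of these data known, although the rule for its members reads symbols only.

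Kept cells had 200 genes or more and no more than 20% of UMIs in 13 mitochondrial genes. SCTransform (sctransform 0.4.2 in Seurat 5.3.0, under R 4.3.3) was run on all libraries together, and 30 principal components were clustered at resolution 0.8. Hox genes were taken out of the 3000 variable genes, which removed *Hoxa5*. Names came from marker lists, by the mean log2 fold of a cluster over all other cells, with naming thresholds chosen once the clusters were known. A comparison with *Col14a1*-type fibroblasts was planned and not made, since no cluster earned that name. Doublets were scored with scanpy 1.11.5 (Python 3.11.15) and the highest scores marked at 0.8% per 1000 cells. 58 symbols were repeated and kept apart.

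Counts were summed per mouse and class, or per mouse and type with at least 10 cells, and tested by quasi-likelihood in edgeR 4.0.16 with TMM scaling, filterByExpr, and Benjamini-Hochberg adjustment over all genes tested (threshold 0.05). The SE is the log2 fold change divided by the root of the F statistic. Because each mouse gave a sum in every class, the mouse was also used as a block. Within a mouse, deviations of 2 sums from their class means had correlations of 0.0666 to 0.255 (18 pairs). No library was a copy of another (chi-square per degree of freedom over genes of 38.1, 9.12, and 31.6). Nothing states that the mice came from separate litters. On simulated data for stromal cells against ECs, 95.3% of 193 genes changed by 2 on the log2 scale were recovered among 13665, and 0.0742% of unchanged genes were called. The simulation gave all genes the same dispersion and no other class differences. These rates therefore need not hold for the real counts or for members with few UMIs.

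Some items are not reported here, although they stay in the counts. Other members with at least 100 UMIs are given by mouse, fold changes for members called. Alternatives were DESeq2 1.42.0, the block, unscaled libraries (without TMM), all genes (without the filter on low counts), leaving out each mouse, a stricter cell filter, doublets removed, resolutions of 0.4 and 1.2, log-normalization, Hox genes kept for clustering, classes from each cell's own UMIs, and thinning to 1000 UMIs. Log-normalization and Hox genes among the variable genes for types, and all alternatives of the HoxB share, were chosen after seeing the data. Exact 95% Poisson intervals of levels and the limit that a count of 0 allows (3 counts) cover counting error only.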

Additional observations from a re-analysis of the deposited data

Results flagged for a closer look

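Hox UMIs were also found in clusters that were given no class and entered no comparison, at levels whose exact 95% Poisson interval lay above that of B-cell-like cells. The cluster led by *Hpgd* and *Sox7* (455 cells of low depth, median 844 UMIs) had a median mitochondrial share of 0.566%, against 6.51% to 7.54% in the EC clusters. It had the highest *Hoxa5* of these clusters, 708.7 CPM (321 UMIs, interval 633 to 791). It also had *Hoxb2* at 8.831 CPM (4 UMIs) and *Hoxb4* at 24.29 CPM (11 UMIs). Its HoxB share was 6.17% ± 3.82 (SD, n = 3). *Sox7* and *Sox18*, both among its leading genes, are known from ECs, but its endothelial markers did not reach the level set for a name.

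The cluster led by *Myl7* and *Tnni3*, genes of heart muscle (160 cells, median 762 UMIs, median mitochondrial share 0.657%, 12 marked doublets), had *Hoxb2* at 169.9 CPM, *Hoxa5* at 78.41 CPM, and *Hoxb4* at 71.88 CPM, from 26, 12, and 11 UMIs. Cells led by *Top2a* and *Mki67*, genes of dividing cells (115 cells), had *Hoxa5* at 99.91 CPM, *Hoxb2* at 19.34 CPM, and *Hoxb4* at 24.17 CPM. The share of these values that came from free RNA or mixed droplets was not tested.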

How the results depend on the processing

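No log2 fold change of a called member reversed. Of 545 tallied, 531 stayed on the same side of the threshold and 14 did not pass. Against epithelial or immune cells, the tally covered only *Hoxa5*, *Hoxb2*, *Hoxb4*, and *Hoxb6*. It thus leaves out the lost calls of *Hoxa6* in ECs against epithelial cells. Of 218 counts of members called, 202 stayed within 1.5 times. The count of members higher in ECs than in stromal cells, 1 in the fit reported, was 2 with DESeq2, 3 without TMM, 4 without a filter on low counts, 3 with marked doublets removed, 2 at resolution 1.2, and 2 with classes from each cell's own UMIs. It was 1 to 2 with a mouse left out, and 2 without mouse 4. With the mouse as a block, this pairing also gave 2, since *Hoxa3* passed, and *Hoxa3* passed between capillary types too. The block changed no other call of 101. The count higher in *Col13a1*-type than in myofibroblast-like cells, 4, was 2 to 4 with a mouse left out, and 2 without mouse 2 or mouse 3. The count higher in *Aplnr*-type cells, 1, was 2 without TMM, without the filter, with the block, with doublets removed, at resolution 0.4, and with Hox genes among the variable genes. The cause of these changes was not tested.

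The stromal share of Hox UMIs was 66.0% with the stricter filter and 64.8% without marked doublets, and that of ECs 28.1% with the stricter filter and 31.4% with classes from own UMIs. The epithelial share was 0.348% without marked doublets, 0.323% at resolution 1.2, and 0.338% with classes from own UMIs. Cells with a Hox UMI fell to 48.1% (stromal), 41.7% (ECs), 0.468% (epithelial), and 0.837% (immune) after thinning. The HoxB share stayed between 67.3% and 68.0% in stromal cells and between 17.98% and 19.7% in ECs. With 3 mice, the EC values of *Hoxb6* to *Hoxb8* and all values of HoxC and HoxD rest on few UMIs. Those of HoxD also rest on few cells, since its 57 UMIs lay in 15 cells.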

Other observations

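HoxD UMIs lay in a few cells with lymphatic markers. This grouping was chosen after the values were seen, so no test was made. There were 8 kept cells (4, 1, and 3 in mice 2, 3, and 4) with UMIs of at least 3 of 5 lymphatic markers (*Prox1*, *Mmrn1*, *Ccl21a*, *Flt4*, and *Reln*), and 7 of them held 44 of the 57 HoxD UMIs. Their HoxD level was 272 CPM, against 0.196 CPM in the other 7634 cells, and their HoxA level was 149 CPM, against 469 CPM in the 952 ECs with fewer of these markers. Of the 8, 5 were among the ECs, 4 of them in the venous-like cluster, which had *Ccl21a* and *Mmrn1* among its leading genes. Cells of this kind were too few to form a cluster.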
